A study of Mus musculus with 2 samples.

Results

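The insulin-like growth factor (IGF) family was followed here as 10 genes of the 31053 listed in the count tables. They were taken by name and comprised the ligands Igf1 and Igf2, the receptors Igf1r and Igf2r, and the binding proteins Igfbp2, Igfbp3, Igfbp4, Igfbp5, Igfbp6 and Igfbp7. The rule used their names and no measured value, although the family was picked with earlier results of these data known. All 10 had counts in both libraries. The cells were fibro-adipogenic progenitors (FAPs), the mesenchymal cells that lie between muscle fibers, sorted as Lin-Vcam1-Sca1+ cells from limb muscle of 3-week-old C57BL/6 mice and measured by droplet single-cell RNA sequencing. One library came from the Bap1f/f genotype (labelled WT), in which both copies of Bap1 carry recombination sites and no Cre is present. The other came from Prx1-Cre;Bap1f/f (labelled cKO, called Bap1ΔMPC in the study), in which a Cre driven by a Prx1 limb-mesenchyme enhancer acts on the same alleles in limb mesenchyme at large and not in FAPs alone. The number of animals behind each library is not given in the sources used here. Bap1 is a deubiquitinating enzyme of histone H2A and other proteins. The study asked how its loss in mesenchymal cells alters FAPs and their subpopulations.

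With 1 library per genotype there was no replicate. An effect of genotype cannot be told apart from one of the library or the animals, and no p-value is given. A level is the sum of unique molecular identifiers (UMIs, 1 per captured transcript) of a gene over a set of cells, per 1000000 UMIs of all genes in those cells (CPM). Intervals are exact 95% intervals, except those of a difference between 2 log2 ratios, which are normal approximations. All cover counting error only and say nothing of variation between mice.

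The libraries held 4103 and 4378 cells and 51015705 and 49540066 UMIs, with medians of 12232 and 11018 UMIs per cell, and 5 barcodes occurred in both. Bap1 itself was not lower in the library labelled cKO but higher beyond counting error, with 897 UMIs (17.6 CPM, 16.5 to 18.8) in the library labelled WT and 1072 (21.6 CPM, 20.4 to 23.0) in the library labelled cKO. The kit reads transcripts at their 3′ end, so counts there do not check a deletion of internal exons, and the libraries are named by their labels throughout. The FAP markers Pdgfra, Ly6a and Dcn summed to 15760 and 13932 CPM. Per the study's methods, cells high in markers of other muscle-resident cells had been removed, so low levels of such markers are partly set by that filter. Ptprc, Cd3e, Pax7 and Myf5 were at 0 in both, and the summed lists for immune, endothelial, muscle stem, Schwann, mural, myofiber and erythroid cells lay between 3.67 and 53.0 CPM. Tendon markers (Tnmd, Scx, Chad, Cilp2) summed to 30.4 and 102.7 CPM, adipocyte markers to 0.412 and 8.24 CPM, and cycling markers to 40.6 and 75.6 CPM. Without cycling cells the log2 ratios over all cells were 0.63 for Igf1, 1.56 for Igf2, -1.23 for Igfbp3 and 0.65 for Igfbp4. They were 0.64, 1.56, -1.28 and 0.62 without cells with adipocyte transcripts, and 0.67, 1.56, -1.30 and 0.66 without cells with Chad, Tnmd and Cilp2.

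IGF1 and IGF2 are secreted growth factors that act through the receptor tyrosine kinase IGF1R. IGF2R, the cation-independent mannose-6-phosphate receptor, takes up IGF2 for degradation and does not drive growth. The IGF-binding proteins hold the ligands outside the cell, lengthen their life and limit or direct their access to the receptor, and proteases release the ligands again. In muscle IGF1 promotes fiber growth and the expansion of muscle stem cells, and mesenchymal cells of the interstitium are a local source of it.

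Levels are given in 2 ranges of cells besides the whole library. Dpp4-type cells had a summed score of Pi16, Sema3c, Anxa3 and Efemp1 of at least 25 UMIs per 10000, and Cxcl14-type cells had a score below 25 and at least 5 UMIs of Cxcl14 per 10000. The first numbered 1050 cells (25.6%) in the library labelled WT and 1251 (28.6%) in the library labelled cKO, the second 569 (13.9%) and 1020 (23.3%), and 2484 and 2107 cells remained. These are ranges of a score and not separate types, and 210 and 337 cells lay between 20 and 30. Genes that the ranges did not use separated them. Dpp4, Cd55, Wnt2 and Efhd1 together had medians over Dpp4-type cells of 12.8 and 13.3 UMIs per 10000 and over Cxcl14-type cells of 0.922 and 0.824. Smoc2, Hsd11b1, Col15a1, Crispld2 and Lum together had medians of 70.2 and 41.7 over Cxcl14-type cells and of 10.2 and 7.82 over Dpp4-type cells. In Cxcl14-type cells 4 of the 5 latter genes were lower in the library labelled cKO, from Smoc2 (2737 and 841.5 CPM) to Lum (2340 and 1719 CPM), and Col15a1 was at 1916 and 1961 CPM. In Dpp4-type cells Cd55 was higher in the library labelled cKO (566 and 786 CPM). Wnt2 (112.7 and 48.8 CPM) and Dpp4 (298 and 268 CPM) were lower there, and Efhd1 was at 320 and 308 CPM. A UMI of Dpp4 was present in 90.8% and 73.6% of these cells.

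None of the 10 genes differed between the libraries by 3-fold, the size used in the study, in all cells, in Dpp4-type cells or in Cxcl14-type cells. Of all genes with at least 20 UMIs in the groups compared, 5.27% of 14729, 3.52% of 12517 and 5.34% of 12265 passed that fold in the same comparisons. At 2-fold, 3 members passed in all cells (Igf2 and Igfbp2 higher and Igfbp3 lower in the library labelled cKO) against 12.0% of all genes. In Dpp4-type cells 2 passed (Igf2 higher, Igfbp3 lower) against 8.85%. In Cxcl14-type cells 4 passed (Igf1, Igf2, Igfbp2 and Igfbp4, all higher) against 11.8%. Some of these 2-fold calls were lost under an alternative: Igfbp4 in Cxcl14-type cells without the cells with Spon1, Cldn2, Hsd11b2 and Angpt4 (log2 ratio 0.83), Igfbp3 in Dpp4-type cells with a threshold of 40 (-0.85) or without cells with Krt7, Plet1, Wnt4, Pcsk2 or Rtl4 (-0.892), and Igfbp2 without the 5% of cells with the most UMIs, over all cells (0.35) and in Cxcl14-type cells, where it turned (-1.60). At 3-fold, Igfbp3 passed in Dpp4-type cells with a threshold of 15 (-1.75), and Igfbp2 passed in Cxcl14-type cells under 7 alternatives (in 1 of them as lower, -1.60) and over all cells under 1. The share of all genes past 3-fold was not counted under these alternatives. The median size of the log2 ratio over the 10 genes was 0.58, 0.30 and 0.75 in these comparisons, and 0.26, 0.25 and 0.29 over all genes tested. The plot of ratios by range of cells shows the members side by side.

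**Figure D1:**
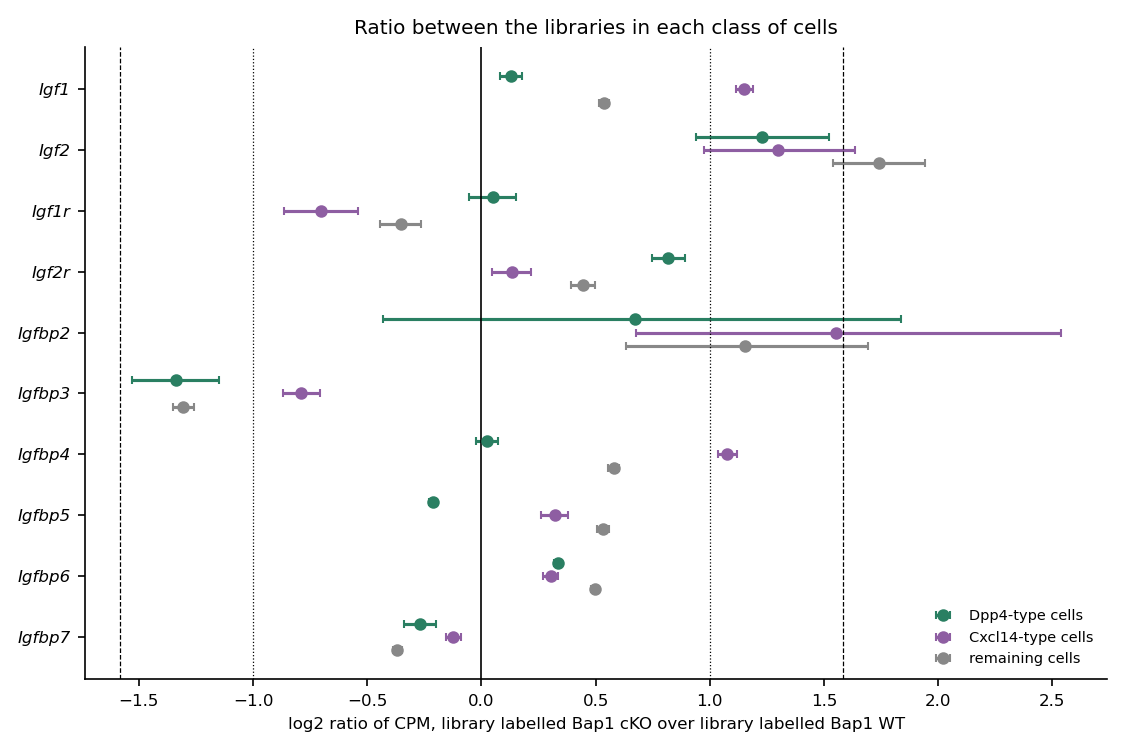
Ratio of CPM between the libraries on a log2 scale for each of the 10 genes, in Dpp4-type cells (green), Cxcl14-type cells (purple) and remaining cells (grey). Bars are exact 95% intervals for counting error only, and dotted and dashed lines mark 2-fold and 3-fold. Igf1 and Igfbp4 sit above 1 in Cxcl14-type cells (1.15 and 1.08) and near 0 in Dpp4-type cells (0.13 and 0.02), and Igfbp3 lies below 0 in every range.

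Igf1, the main ligand of IGF1R after birth, was higher in the library labelled cKO in one range of cells and close to equal in the other. In Cxcl14-type cells Igf1 was at 1100 CPM (1075 to 1125) in the library labelled WT and at 2440 CPM (2411 to 2469) in the library labelled cKO, a log2 ratio of 1.15 (1.11 to 1.19). In Dpp4-type cells it was at 484 CPM (473 to 496) and 529 CPM (517 to 541), a log2 ratio of 0.13 (0.08 to 0.18). By score within this range Igf1 was lower in the library labelled cKO at 25 to 30 (1082 and 796 CPM) and 30 to 40 (906 and 813 CPM). Remaining cells had 1198 and 1738 CPM, a log2 ratio of 0.54. The log2 ratio was thus larger in Cxcl14-type than in Dpp4-type cells by 1.02 (0.96 to 1.08), and the intervals of the libraries did not overlap in any of the ranges. Over all cells, where the larger share of Cxcl14-type cells in the library labelled cKO also enters, Igf1 was at 987 and 1537 CPM. The order of Igf1 levels from low to high was Dpp4-type cells, Cxcl14-type cells and remaining cells in the library labelled WT, and Dpp4-type, remaining and Cxcl14-type cells in the library labelled cKO.

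Single cells showed where the Igf1 counts lay. In Cxcl14-type cells the median was 9.57 UMIs per 10000 in the library labelled WT and 20.7 in the library labelled cKO, and 99.1% and 98.9% of cells had a UMI. In Dpp4-type cells the median was 2.60 and 1.52 UMIs per 10000, and the share of cells with a UMI was 83.7% and 71.7%. The make-up of this range differed, since 281 of its cells in the library labelled cKO and 34 in the library labelled WT had Krt7 or Plet1, a set with less Igf1. A smaller share of Dpp4-type cells of the library labelled cKO had an Igf1 UMI (897 of 1251 against 879 of 1050), although the summed level was slightly higher. The 10% of those cells with the most Igf1 held 60.9% of its UMIs, against 41.1% in the library labelled WT. With every cell thinned to 5000 UMIs, which left out 34 and 49 of the Dpp4-type cells, the shares were 67.9% and 53.9%. No cell type known to lack these genes was among the sorted cells, so a share expected from free RNA could not be set beside them.

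Across finer steps of the Dpp4-type score, Igf1 in the library labelled WT went from 1158 CPM (1137 to 1180) below 2 to 1270 CPM (1214 to 1328) at 20 to 25 and was lower above 25. It was lower with each step above 5 up to 30 in the library labelled cKO. Below a score of 2 it was at 1158 CPM in the library labelled WT and 2076 CPM in the library labelled cKO. From 20 to 25 the order was the other way, with 1270 and 1015 CPM, as it was from 25 to 30 (1082 and 796 CPM) and 30 to 40 (906 and 813 CPM). From 40 to 60 the levels were 532.5 and 507 CPM with overlapping intervals, and at 60 or more they met, at 236 and 239 CPM. The bin of 25 to 30 held 95 and 172 cells, and that of 60 or more 520 and 408. Among cells below a score of 25, Igf1 in the library labelled WT was at 1167 CPM where Cxcl14 had no UMI and at 1101 CPM at 40 or more UMIs of Cxcl14 per 10000. In the library labelled cKO these values were 1577 and 2623 CPM, so that Igf1 was higher with Cxcl14 there and not in the library labelled WT. The last bin held 25 and 211 cells.

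**Figure D2:**
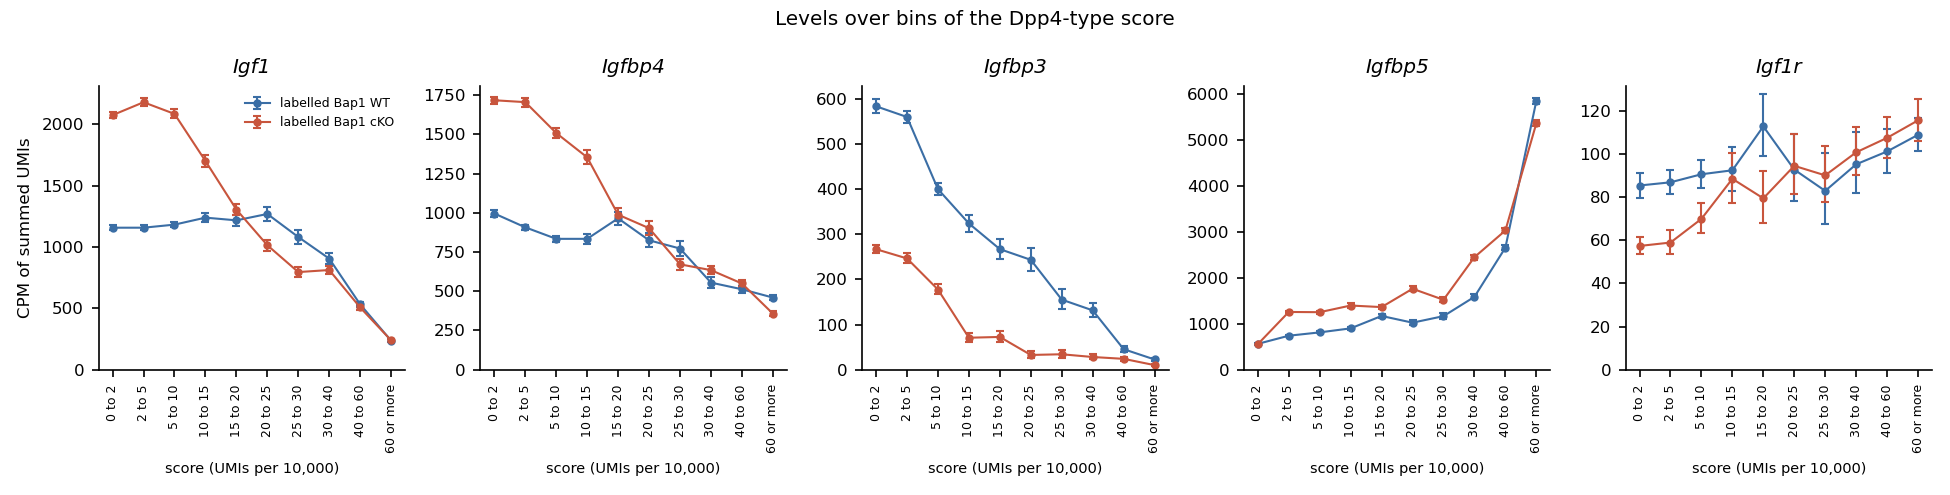
CPM of summed UMIs for Igf1, Igfbp4, Igfbp3, Igfbp5 and Igf1r over bins of the Dpp4-type score (UMIs per 10000 of Pi16, Sema3c, Anxa3 and Efemp1), in the library labelled WT (blue) and the library labelled cKO (red). Points are single values and bars exact 95% Poisson intervals. Igf1 and Igfbp4 of the libraries are apart at low scores (2076 against 1158 CPM and 1718 against 996 CPM below 2) and meet or cross above 20, whereas Igfbp3 is lower in the library labelled cKO in every bin.

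Igf2, the ligand of the fetal period, was a rare transcript at this age. Its UMIs numbered 517 in the library labelled WT (10.1 CPM, 9.28 to 11.1) and 1472 in the library labelled cKO (29.7 CPM, 28.2 to 31.3), a log2 ratio of 1.55 (1.41 to 1.70). It was higher in each range of cells. Dpp4-type cells had 9.92 and 23.2 CPM (log2 ratio 1.23, 0.94 to 1.52), and Cxcl14-type cells 14.5 and 35.6 CPM (1.30, 0.98 to 1.63). Remaining cells had 9.27 and 31.0 CPM, and their fold of 3.34 (2.90 to 3.85) was the only one of the family between libraries that passed 3, as did 5.39% of 13810 genes there, with an interval above that of Dpp4-type cells (fold of 2.34, 1.92 to 2.87). The difference of the ratios between Cxcl14-type and Dpp4-type cells was 0.07 (-0.36 to 0.50). A UMI of Igf2 was found in 9.75% and 20.5% of all cells, and in 5.02% and 12.2% with cells thinned to 5000 UMIs. No single cell carried the difference, since the highest cell held 7 and 10 UMIs.

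Igf2 shares an imprinted domain on chromosome 7 with H19, a noncoding RNA that is made from the maternal copy while Igf2 is made from the paternal one. H19 was abundant and also higher in the library labelled cKO, at 866 and 1591 CPM (log2 ratio 0.88, 0.86 to 0.90). Cells with a UMI of H19 had more Igf2 than cells without one in both libraries. The values were 13.1 and 4.01 CPM in the library labelled WT and 36.1 and 7.72 CPM in the library labelled cKO. Cells with H19 were also somewhat deeper, with medians of 12574 against 11616 UMIs and 11242 against 10320, and the part of depth in this was not tested.

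**Figure D3:**
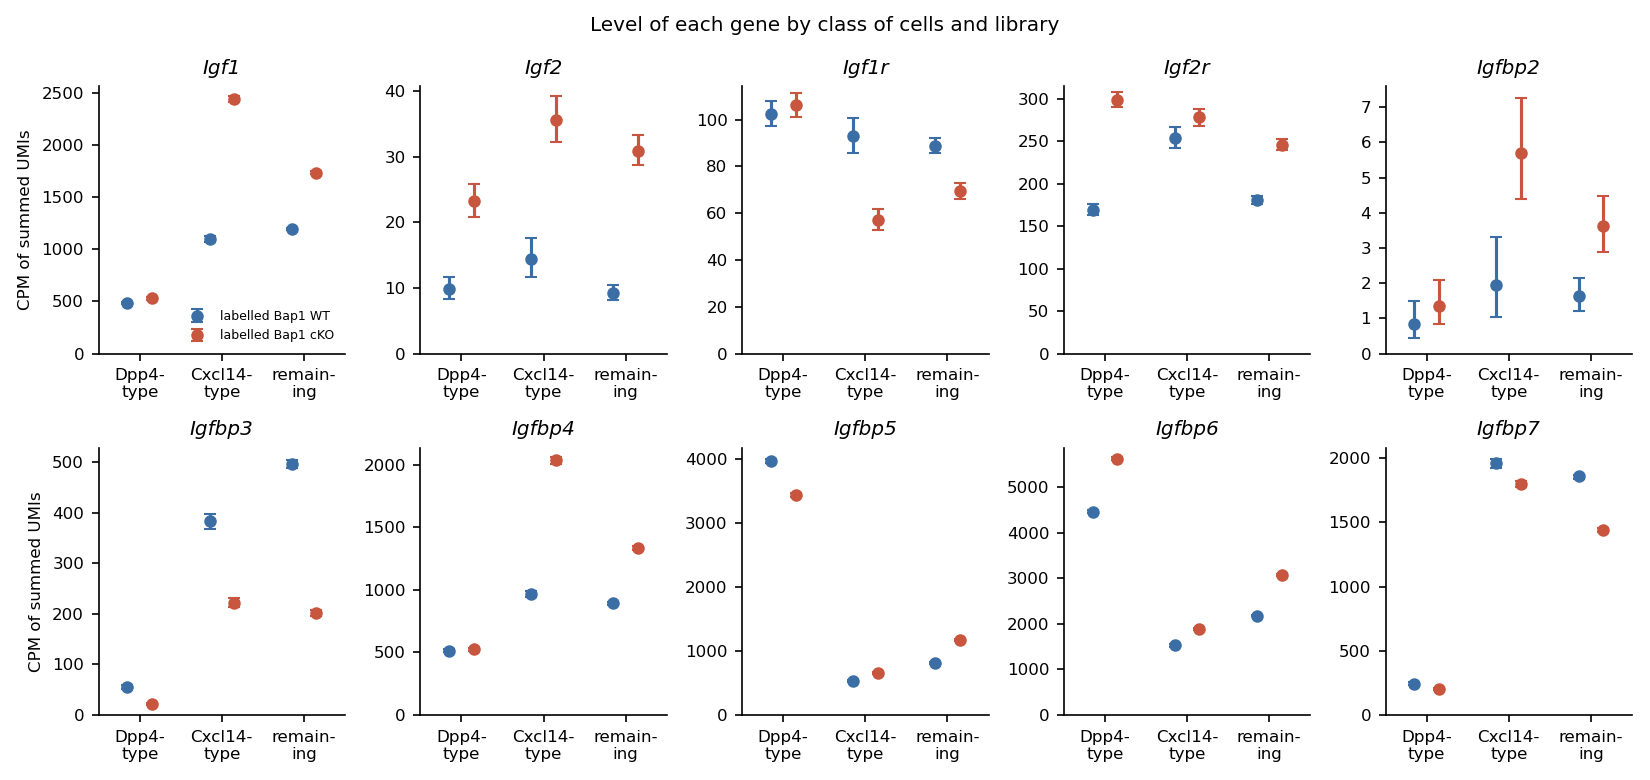
CPM of summed UMIs for each of the 10 genes in Dpp4-type, Cxcl14-type and remaining cells of the library labelled WT (blue) and the library labelled cKO (red), each panel on its own linear axis from 0. Bars are exact 95% Poisson intervals. Igf2 is higher in the library labelled cKO in each range, Igf1r is lower there in Cxcl14-type and remaining cells, and Igf2r is furthest apart in Dpp4-type cells (169.7 against 299 CPM).

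Over all cells Igf1r was lower and Igf2r higher in the library labelled cKO. Igf1r, the signaling receptor, was at 102.5 CPM (97.3 to 108) and 106 CPM (101 to 111) in Dpp4-type cells, a log2 ratio of 0.05 whose interval (-0.06 to 0.15) includes 0. In Cxcl14-type cells it was at 92.95 CPM (85.8 to 100.5) in the library labelled WT and 57.1 CPM (52.8 to 61.7) in the library labelled cKO, a log2 ratio of -0.70 (-0.86 to -0.54). Remaining cells had 88.9 and 69.6 CPM (-0.35, -0.44 to -0.26). In Cxcl14-type and remaining cells Igf1r was thus lower while its ligand Igf1 was higher. The share of Cxcl14-type cells with an Igf1r UMI was 59.9% and 41.4%, and 35.4% and 23.3% after thinning. Levels of Igf1r in Dpp4-type and Cxcl14-type cells of the library labelled WT were close (log2 ratio 0.14, 0.00 to 0.28), and in the library labelled cKO they differed by 0.89 (0.76 to 1.03).

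Igf2r, the uptake receptor, was higher in the library labelled cKO in each range of cells, by most in Dpp4-type cells. In Dpp4-type cells it was at 169.7 CPM (163 to 177) and 299 CPM (290.3 to 308), a log2 ratio of 0.82 (0.75 to 0.89), and in Cxcl14-type cells at 254 CPM (242 to 267) and 278 CPM (269 to 288), a log2 ratio of 0.13 (0.05 to 0.22). Remaining cells had 181 and 246 CPM (0.45, 0.39 to 0.50). The ratio was smaller in Cxcl14-type than in Dpp4-type cells by 0.69 (0.57 to 0.80). Across 15 alternatives the ratio in Cxcl14-type cells ran from 0.006 to 0.20. Cxcl14-type cells of the library labelled cKO outside the set with Wnt4, Pcsk2 or Rtl4 had 254.8 CPM. This was close to the 254 CPM of all Cxcl14-type cells of the library labelled WT, which include its 43 cells of that set. Cxcl14-type cells of the library labelled WT had more Igf2r than Dpp4-type cells (log2 ratio of Dpp4-type over Cxcl14-type -0.58, -0.67 to -0.49). That ratio was 0.10 (0.04 to 0.17) in the library labelled cKO. A UMI of Igf2r was present in 81.0% and 89.0% of Dpp4-type cells, and in 54.8% and 70.3% after thinning.

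The binding proteins made up most of the family's transcripts, and their sum was larger than that of the ligands in each range of cells. The 6 binding protein genes summed to 6967 CPM in the library labelled WT and 7865 CPM in the library labelled cKO, and the ligands to 998 and 1567 CPM. Dpp4-type cells had the most, with 9261 and 9815 CPM, and Cxcl14-type cells had 5372 and 6614 CPM. UMIs count molecules at their 3′ end and are not divided by length, so the sums compare numbers of captured transcripts.

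Which binding protein had the highest summed level depended on the range of cells. By single cells Igfbp6 led most often in each range of the library labelled cKO (76.9% of Dpp4-type, 34.2% of Cxcl14-type and 53.3% of remaining cells). In the library labelled WT, 3 of the 10 family members differed between Dpp4-type and Cxcl14-type cells by over 3-fold, against 9.87% of 12213 genes, and 6 by over 2-fold, against 17.1%. For the library labelled cKO these numbers were 6, against 10.3% of 12680 genes, and 7, against 17.8%. Igfbp5 was higher in Dpp4-type cells in both libraries, at 3975 against 529 CPM and 3434 against 660.5 CPM (log2 ratios 2.91 and 2.38). Igfbp6 was higher there as well, at 4470 against 1534 CPM and 5631 against 1892 CPM (1.54 and 1.57). Igfbp7 and Igfbp3 had the opposite placement, with log2 ratios of -3.00 and -3.14 for Igfbp7 and of -2.79 and -3.34 for Igfbp3. At the stated settings Igf1 and Igfbp4 passed 3-fold only in the library labelled cKO, with log2 ratios of -2.21 and -1.96 there against -1.18 and -0.90, and Igfbp2 passed it there on very few counts. Across 15 alternatives the ratio of Igf1 in the library labelled WT ran from -1.69 to -0.77, past 3-fold at its lowest. That of Igfbp6 ran from 1.44 to 1.68 in the library labelled WT and from 1.28 to 1.78 in the library labelled cKO, past 3-fold at its highest.

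**Figure D4:**
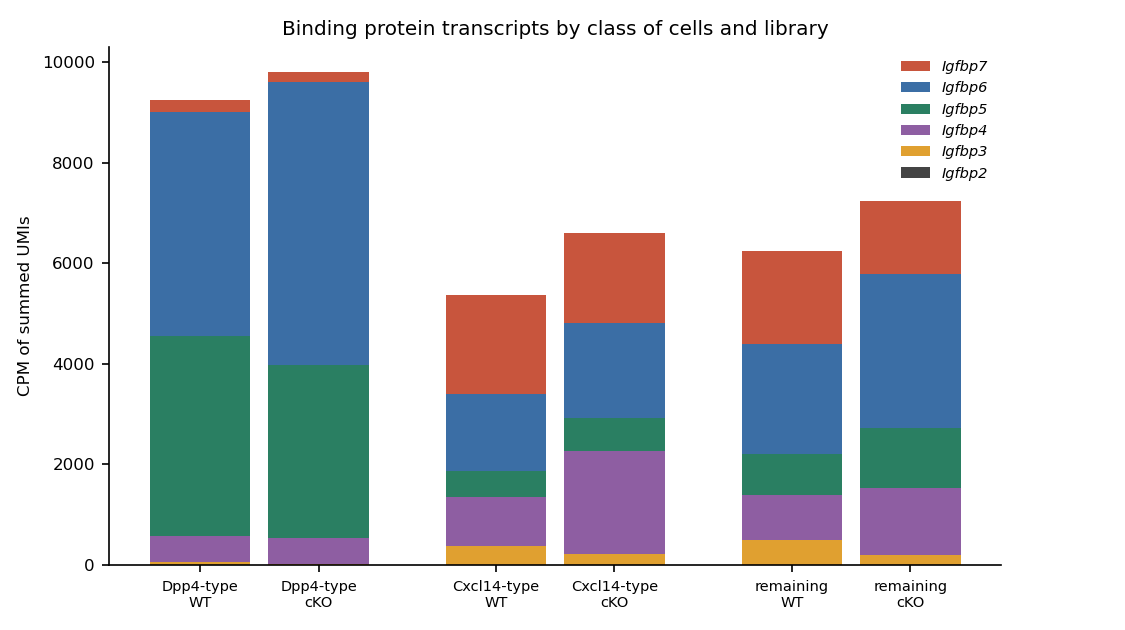
Summed CPM of the 6 binding proteins stacked by gene in Dpp4-type, Cxcl14-type and remaining cells of each library (WT and cKO are the labels). Dpp4-type bars consist mainly of Igfbp6 and Igfbp5, and the Igfbp4 segment of Cxcl14-type cells is 965 CPM in the library labelled WT and 2035 CPM in the library labelled cKO.

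Igfbp4, which binds both ligands and is cleaved by the protease PAPP-A, followed the placement of Igf1. In Cxcl14-type cells it was at 965 CPM (941 to 988) in the library labelled WT and 2035 CPM (2008 to 2061) in the library labelled cKO, a log2 ratio of 1.08 (1.04 to 1.12). In Dpp4-type cells it was at 515 CPM (503.5 to 527) and 524 CPM (512 to 536), with a log2 ratio of 0.02 (-0.02 to 0.07). The difference of these ratios was 1.05 (0.99 to 1.11), close in size to that of Igf1. Within the Dpp4-type range the direction depended on the score. Igfbp4 was lower in the library labelled cKO at 25 to 30 (772.5 and 672 CPM) and at 60 or more (460 and 357.5 CPM). It was higher there at 30 to 40 (555 and 635 CPM) and, with overlapping intervals, at 40 to 60 (513 and 550 CPM). By single cells Igfbp4 was lower in Dpp4-type cells of the library labelled cKO, with medians of 4.23 and 3.19 UMIs per 10000. A UMI was present in 93.2% and 81.9% of these cells, and in 78.05% and 69.3% after thinning. Among binding protein UMIs of Cxcl14-type cells, Igfbp4 made up 18.0% and 30.8%. It was the most abundant binding protein in 6.50% of Cxcl14-type cells of the library labelled WT (4.62 to 8.85) and in 27.6% of the library labelled cKO (24.9 to 30.5). Igfbp7 led in 52.5% and 28.0% of the same cells and Igfbp6 in 29.4% and 34.2%, the highest share in the library labelled cKO.

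Igfbp4 was highest in the cells with most Cxcl14 in both libraries, although in the library labelled WT it first dipped to 757 CPM at 2 to 5 UMIs per 10000. Among cells below a score of 25 it was at 955 CPM without Cxcl14 and 1278 CPM at 40 or more UMIs of Cxcl14 per 10000 in the library labelled WT, and at 1251 and 2570 CPM in the library labelled cKO. Cxcl14-type cells were not matched in Cxcl14, which was at 1446 CPM in the library labelled WT and 2807 CPM in the library labelled cKO. By bins of Cxcl14, Igfbp4 was at 853 and 1594 CPM (5 to 10), 984.5 and 2076 CPM (10 to 20) and 1154 and 2025 CPM (20 to 40). Across single cells, the Pearson correlation of Igf1 with Igfbp4 on log values was 0.16 in the library labelled WT (4103 cells) and 0.53 in the library labelled cKO (4378 cells). Within Cxcl14-type cells it was 0.24 and 0.17, and within Dpp4-type cells 0.32 and 0.54. Cells of a library share its preparation and differ in depth, and these correlations are descriptions.

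**Figure D5:**
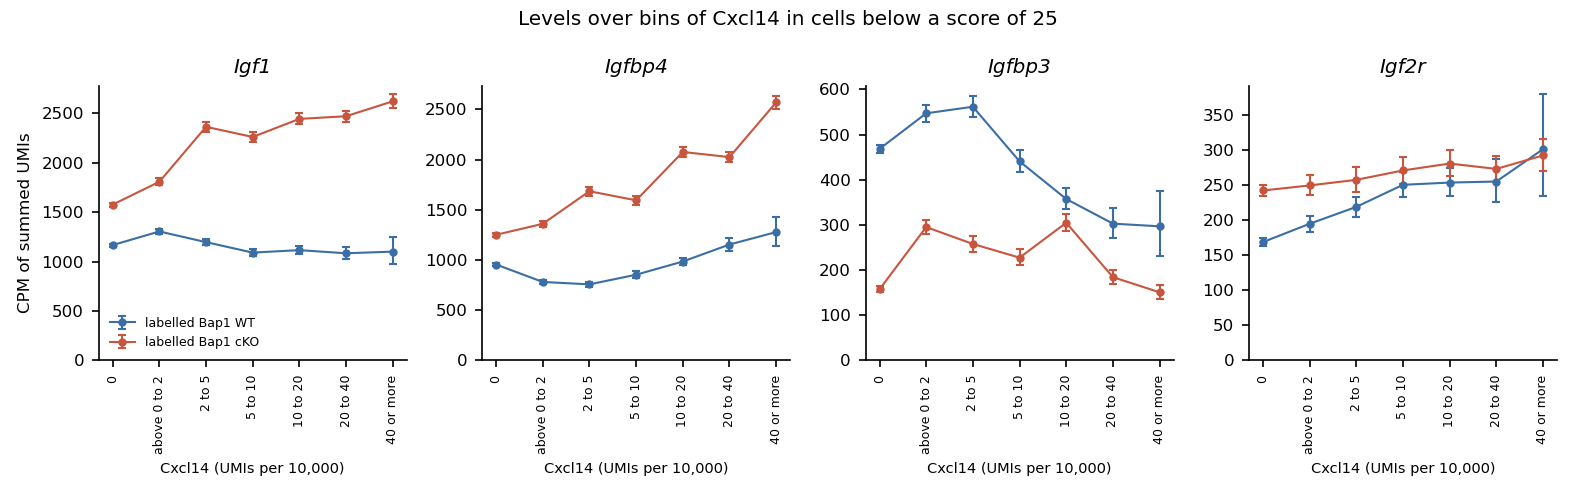
CPM of summed UMIs for Igf1, Igfbp4, Igfbp3 and Igf2r over bins of Cxcl14 (UMIs per 10000) among cells below a Dpp4-type score of 25, in the library labelled WT (blue) and the library labelled cKO (red), with exact 95% Poisson intervals. Igf1 of the library labelled WT stays between 1084 and 1305 CPM, highest in the bin above 0 and below 2, and that of the library labelled cKO goes from 1577 CPM at 0 to 2623 CPM at 40 or more, and the last bin holds 25 and 211 cells.

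The promoter windows of Igf1 and Igfbp4, which were higher together in Cxcl14-type cells, and of Igfbp3, which was lower, are given here as the sequence context of these genes. Each runs from 250 bases before to 50 bases after a transcription start in RefSeq (GRCm38.p6), 5′ to 3′ on the strand of the gene, with each CpG dinucleotide in capitals. The Igf1 window is chr10:87860861-87861160 on the + strand and lies inside the annotated gene (chr10:87858265-87937042). The Igfbp4 window is chr11:99040994-99041293 on the + strand, and the Igfbp3 window is chr11:7213874-7214173 on the - strand.
Igf1: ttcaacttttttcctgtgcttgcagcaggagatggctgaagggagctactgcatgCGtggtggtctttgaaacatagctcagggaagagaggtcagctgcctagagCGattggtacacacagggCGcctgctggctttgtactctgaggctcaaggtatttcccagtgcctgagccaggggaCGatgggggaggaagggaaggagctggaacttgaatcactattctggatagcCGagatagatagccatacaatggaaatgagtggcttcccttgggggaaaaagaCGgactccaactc
Igfbp4: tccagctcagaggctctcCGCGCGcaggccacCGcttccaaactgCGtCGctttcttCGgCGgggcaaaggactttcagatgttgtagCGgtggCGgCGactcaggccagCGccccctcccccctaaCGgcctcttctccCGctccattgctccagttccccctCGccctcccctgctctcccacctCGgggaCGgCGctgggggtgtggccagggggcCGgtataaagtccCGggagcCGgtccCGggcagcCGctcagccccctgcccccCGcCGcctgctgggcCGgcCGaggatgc
Igfbp3: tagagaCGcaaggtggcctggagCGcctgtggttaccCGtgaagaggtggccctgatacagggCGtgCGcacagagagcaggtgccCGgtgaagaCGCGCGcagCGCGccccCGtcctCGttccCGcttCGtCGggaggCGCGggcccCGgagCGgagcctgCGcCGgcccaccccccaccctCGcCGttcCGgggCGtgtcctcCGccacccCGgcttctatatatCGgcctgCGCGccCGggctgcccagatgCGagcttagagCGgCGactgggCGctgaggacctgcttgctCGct
The windows of Igf1 and Igfbp4, which shared a direction in Cxcl14-type cells, were unlike in CpG content. Igf1 had 6 CpG, Igfbp4 had 27 and Igfbp3 had 37, and the median over all 32851 windows of the RefSeq table was 7. All 10 members were matched, with 14 windows among them, and the count ran from 2 in a window of Igf2 to 48 in that of Igf1r. The letters TATAAA, searched on both strands, occurred in 2 of the 14 (Igfbp4 and Igfbp6), against 13.6% of all windows. A match is a description of the letters and not of binding.

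Igfbp3, the main carrier of IGF1 in blood and also a product of mesenchymal cells, had the lowest ratio of the 10 members over all cells. Over all cells it was at 359.5 CPM (354 to 365) in the library labelled WT and 152 CPM (149 to 156) in the library labelled cKO, a log2 ratio of -1.24 (-1.28 to -1.20). Dpp4-type cells had 55.5 and 21.9 CPM (-1.34, -1.53 to -1.15), Cxcl14-type cells had 383 and 222 CPM (-0.79, -0.87 to -0.71), and remaining cells had 496 and 201 CPM (-1.31, -1.35 to -1.26). The direction was the same in each range and in all 10 bins of the Dpp4-type score. Fewer cells carried the transcript, with a UMI in 58.1% of cells of the library labelled WT and 25.7% of the library labelled cKO, and in 45.7% and 18.8% after thinning.

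The Igfbp3 that was left in the library labelled cKO was concentrated in few cells. The 10% of cells with the most Igfbp3 held 54.2% of its UMIs in the library labelled WT and 84.9% in the library labelled cKO, and the highest single cell held 75 and 320 UMIs. In Cxcl14-type cells the median cell had 1.71 UMIs per 10000 in the library labelled WT and 0 in the library labelled cKO, and 1 cell held 281 of the 2496 UMIs of the latter.

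Igfbp5, a binding protein that attaches to extracellular matrix, differed in direction between the summed levels of the ranges. In Dpp4-type cells it was lower in the library labelled cKO, at 3975 CPM (3942 to 4008) and 3434 CPM (3404 to 3464), a log2 ratio of -0.21 (-0.23 to -0.19). By score within this range it was higher in that library at 25 to 30 (1165 and 1521 CPM), 30 to 40 (1585 and 2448 CPM) and 40 to 60 (2655 and 3028 CPM). At 60 or more it was lower (5847 and 5359 CPM), and that bin held 520 and 408 cells. In Cxcl14-type cells Igfbp5 was higher in the library labelled cKO, at 529 CPM (512 to 547) and 660.5 CPM (646 to 676), a log2 ratio of 0.32 (0.26 to 0.38). Over all cells the ratio was 0.07, and its sign turned with 2 other scalings of the libraries. The share of cells with a UMI was lower in the library labelled cKO in Dpp4-type cells (94.2% and 84.1%), as the sum was, and also in Cxcl14-type cells (72.6% and 66.4%), where the sum was higher. The median was 26.7 and 13.7 UMIs per 10000 in Dpp4-type cells and 2.12 and 1.53 in Cxcl14-type cells. The 10% of Cxcl14-type cells with the most Igfbp5 held 49.2% and 61.0% of its UMIs.

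Igfbp6, which prefers IGF2 over IGF1, was the most abundant member in both libraries and higher in the library labelled cKO. It was at 4470 CPM (4435 to 4505) and 5631 CPM (5592 to 5669) in Dpp4-type cells, a log2 ratio of 0.33 (0.32 to 0.35), and at 1534 CPM (1504 to 1564) and 1892 CPM (1867 to 1917) in Cxcl14-type cells, a log2 ratio of 0.30 (0.27 to 0.34). The ratios of these ranges did not differ beyond counting error (-0.03, -0.07 to 0.01), but this depended on the cells included. Across 15 alternatives the ratio ran from 0.005 to 0.56 in Cxcl14-type cells and from 0.26 to 0.40 in Dpp4-type cells. Cxcl14-type cells of the library labelled cKO outside the set with Wnt4, Pcsk2 or Rtl4 had 1561 CPM, close to the 1534 CPM of all Cxcl14-type cells of the library labelled WT. Igfbp6 led the binding proteins in 62.8% and 76.9% of Dpp4-type cells, while Igfbp5 led in 33.7% and 20.3%. In Cxcl14-type cells the sum was higher but the median was not, with 13.4 and 12.6 UMIs per 10000.

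Igfbp7, a matrix protein that binds IGFs weakly, was lower in the library labelled cKO in every range. It was at 245 CPM (237 to 253.5) and 204 CPM (196 to 211) in Dpp4-type cells, a log2 ratio of -0.27 (-0.34 to -0.20). In Cxcl14-type cells it was at 1960 CPM (1926 to 1994) and 1800 CPM (1775 to 1825), a log2 ratio of -0.12 (-0.15 to -0.09), and in remaining cells at 1858 and 1439 CPM. Across 15 alternatives the ratio in Cxcl14-type cells ran from -0.24 to -0.014. Cxcl14-type cells of the library labelled cKO outside the set with Wnt4, Pcsk2 or Rtl4 had 1945 CPM. This was close to the 1960 CPM of all Cxcl14-type cells of the library labelled WT. In cells of a score of 60 or more Igfbp7 was at 112 and 76.3 CPM.

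Igfbp2, better known from liver and brain, was found in few cells. It had 74 UMIs in 30 cells of the library labelled WT and 169 UMIs in 53 cells of the library labelled cKO (1.45 and 3.41 CPM). Its fold of 2.93 in Cxcl14-type cells rested on 1 cell with 57 of 64 UMIs in the library labelled cKO and on 1 cell with 11 of 13 in the library labelled WT. Without these cells the levels were 0.622 and 0.298 CPM, from 7 and 2 UMIs. Igfbp2 lies 5457 bases from Igfbp5 on chromosome 1 (chr1:72824503-72852474 and chr1:72857932-72874884, GENCODE on GRCm38).

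A list of 53 further genes of IGF signaling was matched in full, and 48 of them had enough counts over all cells and 45 in both Dpp4-type and Cxcl14-type cells. In all cells 3 passed 3-fold (Adam12 and Igf2bp1 higher, Stc1 lower), in Dpp4-type cells 2 (Adam12 and Pik3cb higher) and in Cxcl14-type cells 2 (Adam12 higher, Stc1 lower), against 5.27%, 3.52% and 5.34% of all genes. The median log2 ratio of the list was 0.20, 0.12 and 0.16, and that of all genes 0.10, 0.07 and 0.07. At 2-fold the counts were 5, 5 and 4, against 12.0%, 8.85% and 11.8% of all genes, and the list was near the background at both folds.

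Among proteases of binding proteins and their inhibitors, Adam12 and Stc1 passed 3-fold over all cells, while Pappa (0.32), Htra1 (0.53) and Stc2 (-0.33) had log2 ratios under 1. Adam12, a metalloprotease that cleaves IGFBP3 and IGFBP5, had 572 UMIs (11.2 CPM) in the library labelled WT and 4158 (83.9 CPM) in the library labelled cKO, a log2 ratio of 2.90 (2.78 to 3.03). It was 3.96-fold higher in Dpp4-type and 9.86-fold higher in Cxcl14-type cells. Pappa, the protease of IGFBP4, was found mainly outside Dpp4-type cells, at 2.98 and 1.02 CPM there and 52.4 and 82.7 CPM in Cxcl14-type cells. Its log2 ratio between libraries was 0.66 (0.48 to 0.84) in Cxcl14-type cells and -1.55 (-2.51 to -0.67) in Dpp4-type cells, the latter from 42 and 15 UMIs. Pappa2, its relative, had 346 and 159 UMIs over all cells (-1.08, -1.36 to -0.80). Stc1, which inhibits PAPP-A, had 605 and 94 UMIs (-2.64, -2.97 to -2.33) and 35 and 18 in Cxcl14-type cells, and the related inhibitor Stc2 was lower in Cxcl14-type cells, with 73 and 57 UMIs (10.9 and 5.06 CPM). Remaining cells, where Igfbp4 was also higher, had Pappa at 29.8 and 26.4 CPM (-0.18, -0.33 to -0.03), Stc2 with a log2 ratio of -0.05 (-0.41 to 0.30) and Stc1 with 556 and 69 UMIs (-2.65, -3.03 to -2.29).

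Ghr, the growth hormone receptor, was at 71.2 and 118.6 CPM in Cxcl14-type cells (log2 ratio 0.74, 0.58 to 0.89) and at 40.0 and 43.9 CPM in Dpp4-type cells (0.14, -0.03 to 0.30), a placement like that of Igf1. Irs1, an adaptor of IGF1R, was lower over all cells at 40.6 and 23.9 CPM (-0.77, -0.87 to -0.66), and Irs2 was at 72.8 and 89.5 CPM (0.30, 0.23 to 0.36). The insulin receptor Insr was at 18.8 and 16.4 CPM (-0.20), and the adaptor Grb10, which dampens receptor signaling and is imprinted, at 248.5 and 252 CPM (0.02, -0.02 to 0.05). Few counts stood behind Grb14, a relative of Grb10 (6 and 30 UMIs in Cxcl14-type cells), Pik3cb, a catalytic subunit of PI3 kinase (17 and 41 UMIs over all cells), and Igf2bp1, an RNA-binding protein that binds the Igf2 transcript (16 and 52 UMIs).

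Family members also varied with sets of cells marked by other genes. Cells with 5 or more UMIs per 10000 of Spon1, Cldn2, Hsd11b2 and Angpt4 summed numbered 58 in the library labelled WT and 655 in the library labelled cKO. In both they had more Igf1 than the other cells of the library, at 1999 against 975 CPM and 2683 against 1340 CPM, and more Igfbp4, at 1412 against 791 CPM and 2444 against 1047 CPM. They also had less Igfbp5 (log2 ratios -1.24 and -1.88). Only 1.72% and 0.916% of them were Dpp4-type, whereas the other cells include the Dpp4-type cells, which had the most Igfbp5. In the library labelled WT their 703 CPM of Igfbp5 lay between Cxcl14-type (529 CPM) and remaining cells (814 CPM). In the library labelled cKO their 526 CPM lay below both (660.5 and 1177 CPM). Without these cells Igf1 and Igfbp4 of Cxcl14-type cells stayed higher in the library labelled cKO, with log2 ratios of 1.10 and 0.83.

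Other sets had their own profile. In the library labelled WT, 278 cells with Fmo2, Angpt2 and Stc1 (36 in the library labelled cKO) had high Igfbp7 (3460 against 1293 CPM) and Igfbp4 (1691 against 741 CPM) and 1 UMI of Igf2. In the same library 336 cells with Hmcn1, Meox1 and Etv4 had high Igfbp3 (721.5 against 330.3 CPM) and low Igfbp4 (352 against 835 CPM), and these cells numbered 86 in the library labelled cKO. Cells with the tendon genes Chad, Tnmd and Cilp2 had more Igfbp3 than others in both libraries, at 645 against 354 CPM (65 cells) and 315 against 144 CPM (199 cells). Dpp4-type cells with Krt7 or Plet1 (281 of 1251 in the library labelled cKO, 34 of 1050 in the library labelled WT) had less Igf1 in the former (269 against 605 CPM) and little Igfbp3 (5.08 against 26.9 CPM). Cxcl14-type cells with Wnt4, Pcsk2 or Rtl4 (362 cells, and 43 in the library labelled WT) did not differ from the rest in Igf1 (2440 CPM in both) and had less Igfbp3 (129 against 276 CPM). They had more Igfbp6 (2456 against 1561 CPM) and Igf2r (318.5 against 254.8 CPM). Igfbp4 (1676 against 2245 CPM) and Igfbp7 (1552 against 1945 CPM) were lower in them. Cells with adipocyte transcripts (149 cells, and 12 in the library labelled WT) had more Igfbp4 (2043 against 1222 CPM) and less Igfbp6 (1848 against 3637 CPM), and 82 cycling cells (45 in the library labelled WT) had less Igfbp3 (39.5 against 155 CPM).

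Genes with a level across all cells of a library most like that of each member were sought next. By the smaller of the 2 libraries' Pearson r over 9479 genes, Igfbp7 was most like Bgn (0.74 and 0.67), a small proteoglycan, then Col15a1 and Il11ra1. Igfbp6 was most like Mfap5 (0.54 and 0.61), a microfibril protein, then Ppp1r14b and Cd55. Igfbp5 was most like Sema3c and Efemp1, which the score itself uses, and Prss23 (0.41 and 0.36). Igf1 was most like Il11ra1 (0.40 and 0.43), Pcolce and Htra1, and Igfbp4 was most like Tspan11 (0.34 and 0.33), Col15a1 and Entpd2. For Igfbp3 (Il11ra1, 1500015O10Rik, Prlr), Igf2r (Col5a3, Lamc1, Plxdc2) and Igf1r (Pcsk6, Nid1, Marcks) the smaller r stayed below 0.30, which in sparse counts is no finding. Between members, over all cells, Igfbp6 ran opposite to Igfbp7 (-0.48 in both libraries) and along with Igfbp5 (0.42 and 0.35). With Igfbp7 it was -0.23 and -0.16 within Dpp4-type cells and -0.12 and -0.20 within Cxcl14-type cells. With Igfbp5 it was 0.40 and 0.18 within Dpp4-type cells and 0.11 and 0.23 within Cxcl14-type cells.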

How the data were processed

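The 2 libraries of sorted FAPs, 1 per genotype, were analysed from the filtered count matrices the authors deposited (UMI counts per gene and cell, not normalized). The submitters' processing notes name bcl2fastq 2.20.0, FastQC 0.11.7, Cell Ranger 3.1.0, R 3.6.1 and Seurat 3.2.1 and the build mm10; the thresholds of the cell filter are not given in the sources used here. In the files, cells had 1501 to 4998 genes and at most 5.00% mitochondrial UMIs. No further cell filter and no doublet caller was applied.

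UMIs were summed per library and range of cells and divided by the summed total (Python 3.11.15, numpy 2.4.6, pandas 2.3.3, scipy 1.17.1, matplotlib 3.10.9). Levels carry exact Poisson, shares Clopper-Pearson and ratios conditional binomial intervals at 95%, and differences of log2 ratios normal-approximation intervals, for counting error only. A gene entered a comparison with at least 20 UMIs in both groups together, and a count of 0 was set to a floor of 3 counts over the group. Called means past 3-fold, the size in the study's methods, with 2-fold as the alternative. With 1 library per genotype no test was run. The scripts were tested on simulated data.

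The members, the gene lists and the ranges of cells were chosen with earlier results of these data known. Named were all 10 members, Bap1, pathway genes past 2-fold in any of the 3 comparisons between libraries, the fixed genes Ghr, Insr, Irs1, Irs2, Pappa, Pappa2, Stc1, Stc2, H19 and Grb10, and the 3 genes most like each member found in at least 20% of cells of both libraries, among genes in at least 5% of cells. Alternatives were the fold, the minimum of UMIs, TMM factors (edgeR 4.0.16 in R 4.3.3, factors only) and median-of-ratios factors, means over cells, the thresholds of the ranges, and leaving out the 5% of cells with the most UMIs or cells marked by other genes. Promoter windows came from RefSeq (GRCm38.p6) and gene coordinates from GENCODE on GRCm38.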

Additional observations from a re-analysis of the deposited data

Results flagged for a closer look

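Igfbp5 was singled out because the ratio of its summed level between the libraries had opposite directions in the ranges of cells. The log2 ratio of the library labelled cKO over the library labelled WT was -0.21 (-0.23 to -0.19) in Dpp4-type cells and 0.32 (0.26 to 0.38) in Cxcl14-type cells. The difference was 0.53 (0.47 to 0.59), with a normal-approximation interval for counting error only. Within the Dpp4-type range the direction depended on the score. Igfbp5 was higher in the library labelled cKO at 25 to 30 (1165 and 1521 CPM), 30 to 40 (1585 and 2448 CPM) and 40 to 60 (2655 and 3028 CPM). It was lower there at 60 or more (5847 and 5359 CPM, in 520 and 408 cells). By single cells the direction was the same in both ranges, with medians of 26.7 and 13.7 UMIs per 10000 in Dpp4-type cells and of 2.12 and 1.53 in Cxcl14-type cells. The 10% of Cxcl14-type cells with the most Igfbp5 held 49.2% and 61.0% of its UMIs. With 1 library per genotype the difference was not tested over replicates.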

How the results depend on the processing

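No paired analysis was possible because there was only a single library for either genotype, and no value comes from a test. Of 705 values under an alternative, 490 stayed within the interval of the reported value, 210 moved outside it and 5 reversed, which counts only values whose interval excluded 0, and the cause was not tested. Among ratios between libraries in Dpp4-type cells with intervals that include 0, the sign held in 10 of 15 alternatives for Igfbp4, 13 of 15 for Igf1r and 13 of 14 for Igfbp2. The 2-fold call of Igfbp3 in Dpp4-type cells was also lost without cells with Krt7, Plet1, Wnt4, Pcsk2 or Rtl4 (-0.892), and that of Igfbp2 with means over cells (0.866 in all cells, 0.773 in Cxcl14-type cells). Leaving out cells with Spon1, Cldn2, Hsd11b2 and Angpt4, cells with Krt7, Plet1, Wnt4, Pcsk2 or Rtl4, or shared barcodes was chosen after seeing the data. With a fold of 2, the members called between libraries numbered 3 in all cells, 2 in Dpp4-type and 4 in Cxcl14-type cells, those between the ranges in the library labelled WT 6, and the pathway genes 5, 5 and 4. With no minimum of UMIs the pathway count was 4 in Dpp4-type and 5 in Cxcl14-type cells, and with a minimum of 100 it was 1 and 1. A Dpp4-type threshold of 15 gave 1 member in Dpp4-type cells (Igfbp3), and one of 40 gave 5 between the ranges in the library labelled WT. In Cxcl14-type cells 1 member, Igfbp2, passed 3-fold with a Cxcl14 threshold of 2 or 10, and without the 5% of cells with the most UMIs, the adipocyte cells, the Chad, Tnmd and Cilp2 cells, the Spon1 set or the Krt7, Plet1, Wnt4, Pcsk2 or Rtl4 cells. Without the last of these, 1 member passed in all cells and 1 pathway gene in Cxcl14-type cells. The share of all genes called was not counted with changed thresholds, minimums or cells left out. These counts therefore have no background beside them and cannot be read as more or fewer than over all genes. Igfbp5 over all cells reversed with TMM (-0.028) and median-of-ratios factors (-0.00394). Igfbp2 reversed without the 5% of cells with the most UMIs, between libraries in Cxcl14-type cells (-1.6) and between the ranges in the library labelled cKO (0.985). Igf2r between the ranges of that library reversed without the Spon1 set (-0.00242). Across 15 alternatives the log2 ratio in Cxcl14-type cells ranged from 1.09 to 1.18 for Igf1 and from 0.83 to 1.22 for Igfbp4, and across 11 that of Igfbp3 over all cells from -1.48 to -1.03. TMM factors shifted all log2 ratios between libraries by 0.10 over all cells and by 0.13 in remaining cells. Depth limits Igfbp2 and the pathway genes with few UMIs.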
